A study of Mus musculus with 16 samples.

Results

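The 41 genes described here drive or mark the cell division cycle, and their transcripts were followed in adherent peritoneal macrophages of mice that lack functional lipin-1 and of control mice, with and without LPS. The genes were taken from a fixed list of symbols: 7 cyclins and cyclin-dependent kinases of G1 and of the entry into S phase, 3 kinase inhibitors, 2 transcription factors (E2f1 and Foxm1), 9 genes of DNA replication and nucleotide supply, and 20 genes of G2 and mitosis. All 41 were on the array, through 67 of its 41174 probes, and 38 of them passed the filter on dim probes and entered the tests among 17446 features. Ccne2, Bub1 and Kif11 did not pass it. The brightest probe of 24 of the 41 was well above background on all 16 arrays.

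Cyclins bind cyclin-dependent kinases and switch them on in turn. The D-type cyclins with Cdk4 and cyclin E with Cdk2 act on the retinoblastoma protein family, which releases E2F factors and with them the genes of DNA replication, and a later wave of genes, driven in part by Foxm1, carries the cell through mitosis. Most tissue macrophages are thought to be out of cycle, although those of the peritoneum can renew themselves locally, and LPS, the bacterial lipopolysaccharide sensed by Tlr4, is known in mouse macrophages to activate inflammatory genes and to hold back proliferation.

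Peritoneal cells of male mice were plated, rinsed after adhering and used as macrophages, and each of 4 groups was measured on 4 single-colour arrays. The groups were fld with LPS, fld untreated, control with LPS and control untreated, and LPS was given at 100 ng/ml for 5 h in medium without serum. The fld mice carried the fatty liver dystrophy mutation of Lpin1 (strain BALB/cByJ-Lpin1fld/J), and the controls were heterozygotes of that strain, so that they carried the mutation on one chromosome. Lipin-1 turns phosphatidate into diacylglycerol in the making of storage lipids. The design text names 4 mice of each genotype and does not tie a replicate number to a mouse. If replicate arrays shared a mouse, the p-values would cover no more than technical variation. Each group was hybridised on a slide of its own, and the effects of slide and group cannot be told apart. Levels below are log2 of the processed intensity relative to the 75th percentile of its array, and a level of one gene is never set against that of another, since probes differ in brightness.

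Between 58.7% and 65.4% of an array's spots exceeded background clearly by the scanner software's own call, and intensities at the 75th percentile were 189 to 627. The mean of 3 neighbouring Lpin1 probes lay between -6.72 and -5.46 in fld replicates 1 to 3 and between -3.53 and -2.86 in control arrays, while the arrays labelled fld replicate 4 stood at -3.03 with LPS and at -1.62 untreated. Another Lpin1 probe, above background on all 16 arrays, read -1.59, -1.4 and -1.69 in fld LPS replicates 1 to 3. It overlapped there with control LPS arrays, at -1.46, -1.4, -1.69 and -1.57. Untreated, it read -1.84, -1.96 and -2.15 in fld replicates 1 to 3 against -1.5, -1.81, -1.44 and -1.3 in control arrays. On the arrays labelled fld replicate 4 it stood at -0.33 with LPS and at -0.63 untreated. These arrays therefore go against their label for the mutated gene, and results are given with and without them. Of 8 macrophage markers (Adgre1, Cd68, Csf1r, Itgam, Lyz2, Gata6, Timd4 and Icam2), at least 7 were above background on every array, with summed log2 levels of 5.82 to 7.63 in fld LPS arrays, 8.05 to 8.53 in fld untreated arrays, 7.36 to 7.87 in control LPS arrays and 8.16 to 8.31 in control untreated arrays. The lowest of these, 5.82, was fld LPS replicate 4. At least 5 of 6 markers of B cells and at least 5 of 6 of mast cells were above background on every array, at summed levels of 8.07 to 9.11 and of 3.94 to 7.03, and their part in the results was not tested. In bulk RNA a change in the number of dividing cells of any of these types and a change in transcript per cell cannot be told apart. Nothing in these arrays says which cell type held a given transcript.

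Promoter sequences are shown for 6 members, in order to place them beside the motifs known from cell cycle promoters: Plk1 and Tyms, called with LPS and in opposite directions, Mki67, called higher with LPS in control cells, and Birc5, Bub1 and Top2a, which stood apart on single arrays. Each is the 250 bases before the RefSeq start of the gene (GRCm38.p6), 5′ to 3′ in the direction of the gene: Plk1 (chr7:122159185-122159434, plus strand), Tyms (chr5:30073626-30073875, minus strand), Mki67 (chr7:135716380-135716629, minus strand), Birc5 (chr11:117848987-117849236, plus strand), Bub1 (chr2:127831860-127832109, minus strand) and Top2a (chr11:99024190-99024439, minus strand). Capitals mark CCAAT, the box bound by the factor NF-Y, and TTTGAA, the core of the cell cycle homology region (CHR), on either strand.
Plk1: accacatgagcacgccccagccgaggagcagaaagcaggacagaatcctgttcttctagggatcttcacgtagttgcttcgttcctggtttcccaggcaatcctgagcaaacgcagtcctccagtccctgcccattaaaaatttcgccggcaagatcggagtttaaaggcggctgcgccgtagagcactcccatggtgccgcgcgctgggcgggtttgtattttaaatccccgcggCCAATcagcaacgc
Tyms: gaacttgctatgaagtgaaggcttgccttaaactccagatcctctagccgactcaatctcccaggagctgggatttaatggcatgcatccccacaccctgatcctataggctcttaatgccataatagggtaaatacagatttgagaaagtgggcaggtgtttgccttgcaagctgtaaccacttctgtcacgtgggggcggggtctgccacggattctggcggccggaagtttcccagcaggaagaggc
Mki67: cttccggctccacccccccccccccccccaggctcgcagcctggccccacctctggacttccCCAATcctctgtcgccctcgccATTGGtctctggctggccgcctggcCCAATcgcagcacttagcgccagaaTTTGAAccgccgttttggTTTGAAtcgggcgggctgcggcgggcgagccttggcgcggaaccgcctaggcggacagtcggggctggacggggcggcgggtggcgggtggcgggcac
Birc5: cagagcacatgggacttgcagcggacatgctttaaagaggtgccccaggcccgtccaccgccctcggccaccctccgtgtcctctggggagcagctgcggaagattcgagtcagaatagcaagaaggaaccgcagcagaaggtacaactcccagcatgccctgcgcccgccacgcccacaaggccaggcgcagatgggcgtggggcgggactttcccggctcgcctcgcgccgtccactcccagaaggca
Bub1: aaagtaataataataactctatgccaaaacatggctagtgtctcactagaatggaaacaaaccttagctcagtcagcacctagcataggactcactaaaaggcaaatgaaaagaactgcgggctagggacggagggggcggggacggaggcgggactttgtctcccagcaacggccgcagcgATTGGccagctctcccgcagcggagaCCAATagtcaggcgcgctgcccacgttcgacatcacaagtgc
Top2a: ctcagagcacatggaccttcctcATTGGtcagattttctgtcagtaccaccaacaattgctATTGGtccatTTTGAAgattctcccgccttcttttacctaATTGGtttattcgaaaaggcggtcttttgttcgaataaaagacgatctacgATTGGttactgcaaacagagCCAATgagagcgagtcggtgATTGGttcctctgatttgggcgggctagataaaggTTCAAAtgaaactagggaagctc
Top2a held 6 CCAAT boxes and 2 CHR cores, Mki67 held 3 and 2, Bub1 held 2 CCAAT boxes, Plk1 held 1 that ends close to the start, and Tyms and Birc5 held no match to these letters in this window. The RefSeq table held 36 promoters of 32 members. CCAAT was found in 25 of the 36, against 33.8% of all 32851 promoters of that table. By gene it was found in 24 of the 32 members and in 14 of 16 mitotic members. The CHR core was found in 8 of the 36 promoters, against 16% of all promoters, and 7 of the 8 members with it were mitotic. An E2F site (TTTCCCGC, TTTCGCGC, TTTGCCGC or TTTGGCGC on either strand, with no overlap between motifs) was found in 5 of the 36, those of Cdk1, Cdk2, Mcm5, Mcm6 and Mcm7, against 1.86% of all promoters. A match is a run of letters and not a site shown to be bound.

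In control cells LPS raised 5 of the 38 members tested and lowered 3 (limma with Benjamini-Hochberg adjustment over all features, adjusted p under 0.05), 8 calls where 29.5% of all features were called. The members that rose were Tyms, Mki67, Ccnd2, Cdkn1a and Foxm1, and those that fell were Plk1, Cdkn2c and E2f1. Without fld LPS replicate 3, which enters the shared estimate of spread, Aurkb, Bub1b, Birc5 and Cenpe were also called lower in control cells, 12 calls where 29.7% of features were called. In fld cells LPS raised 2 of 38, Tyms and Foxm1, and lowered none, where 39.6% of all features were called. That count depended on a single array: without fld LPS replicate 3, LPS in fld cells raised 3 members and lowered 12, 15 calls of 38 where 41.7% of features were called. This array was singled out by its high values in these same genes. Leaving it out must lower the fld LPS mean of each member for which it was the highest of its group. Here and below, calls and adjusted p-values without it therefore show this dependence and are not separate tests of LPS. Leaving out both arrays labelled fld replicate 4 instead gave 2 higher and 1 lower (Ccnd1) where 30.6% of features were called, and leaving out all 3 of these arrays gave 2 higher and 9 lower where 26.3% were called. The median log2 change over the 38 members was -0.26 in control cells (0.03 over all features) and -0.16 in fld cells (0.06 over all features), and in fld cells it moved to -0.42 without fld LPS replicate 3, to -0.02, -0.03 and -0.05 without fld LPS replicates 1, 2 and 4, and to -0.05 and -0.10 without fld untreated replicates 2 and 4.

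**Figure D1:**
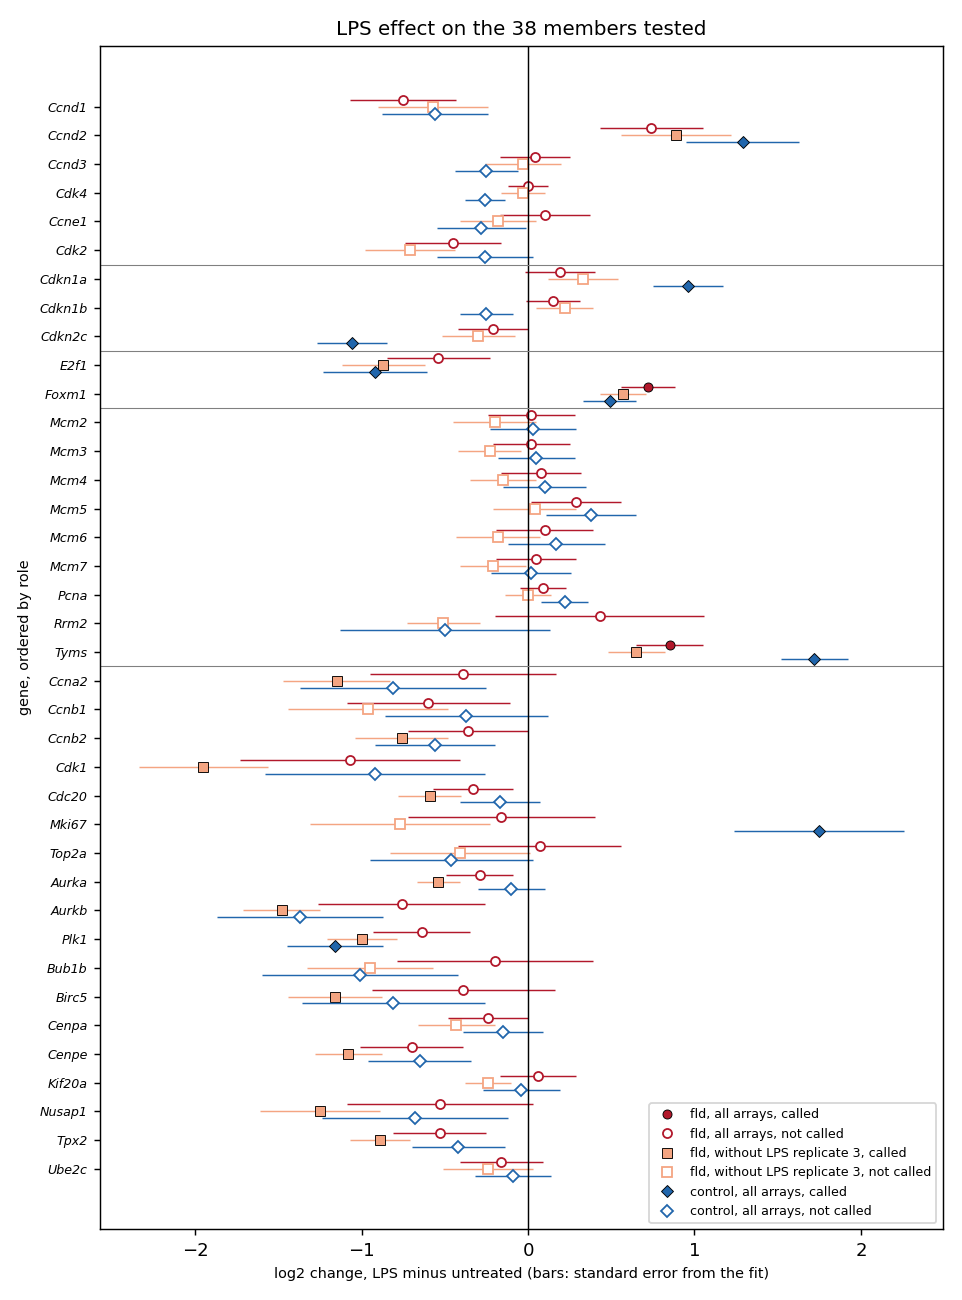
The log2 change with LPS (LPS minus untreated, bars showing the standard error of the fit) is drawn for each of the 38 members tested, in fld cells with all arrays (circles), in fld cells without LPS replicate 3 (squares) and in control cells (diamonds); filled symbols passed an adjusted p of 0.05. In the mitotic block at the bottom the squares lie left of the circles for each gene, while Tyms, Foxm1 and Ccnd2 lie right of 0 in all 3 sets.

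Of the G1 members, cyclin D2 was the one called with LPS in the fit to all arrays, in control cells. Ccnd2 stood at 3.2, 3.94, 3.28 and 4.44 in fld LPS arrays against 3.04, 2.21, 3.26 and 3.37 in fld untreated arrays. For Ccnd2, control cells gave 3.48, 3.21, 3.76 and 3.5 on LPS arrays against 2.71, 1.67 and 2.22 (replicate 3 flagged) on untreated arrays. Every control LPS array was above every control untreated array, and the change was 1.29 ± 0.34 (log2, SE; adjusted p = 0.0102, limma), or 1.02 ± 0.36 without control untreated replicate 2 (adjusted p = 0.0567). The fld arrays overlapped, with a change of 0.74 ± 0.31 (adjusted p = 0.0714) and of 0.89 ± 0.33 without fld LPS replicate 3 (adjusted p = 0.0466). The other Ccnd2 probes gave differences of 0.76 and 0.73 in fld cells and of 1.16 and 1.15 in control cells, so the 3 probes of this gene moved alike. Ccnd2, a partner of Cdk4 and Cdk6, is the D-type cyclin that mouse lymphocytes and macrophages use alongside Ccnd1 and Ccnd3.

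Cyclin D1 is the classical D-type cyclin of cells answering growth factors. Ccnd1 measured -2.67, -2.61, -3.05 and -1.71 in fld LPS arrays against -1.13, -1.92, -2.27 and -1.72 in fld untreated arrays. For Ccnd1, control cells gave -3.08, -2.81, -2.21 and -2.52 on LPS arrays against -1.69, -2.4, -2.68 and -1.61 on untreated arrays. Its change was -0.75 ± 0.32 in fld cells (adjusted p = 0.0739, limma) and -0.56 ± 0.32 in control cells (adjusted p = 0.21), and fld LPS replicate 4 was the highest of its group. In fld cells Ccnd1 was called lower under quantile normalization, median centring and array weights, without fld untreated replicate 3, and without fld LPS replicate 4, where its change was -1.02 (adjusted p = 0.0178). Cdk4 read 1.28, 1.34, 1.5 and 1.48 in fld LPS arrays against 1.4, 1.28, 1.38 and 1.55 in fld untreated arrays. For Cdk4, control cells gave 1.22, 1.26, 1.56 and 1.28 on LPS arrays against 1.79, 1.79, 1.3 and 1.51 on untreated arrays. Cdk4, the kinase that D-type cyclins switch on, varied little, and control LPS replicate 3 stood above the other 3 arrays of its group. With LPS in control cells Cdk4 was called lower under array weights and without control untreated replicate 3. Ccne1 lay at 0.47, 0.7, 1.8 and 0.98 in fld LPS arrays against 0.88, 0.52, 0.97 and 1.19 in fld untreated arrays. For Ccne1, control cells gave 0.23, 0.55, 0.95 and 0.67 on LPS arrays against 0.94, 0.62, 1.45 and 0.54 on untreated arrays. Ccne1, the cyclin that carries Cdk2 into S phase, overlapped in all comparisons, with its highest value in fld LPS replicate 3.

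Ccne2 stood at -6.63, -4.46 and -4.72 (replicate 2 flagged) in fld LPS arrays against -5.43, -5.55, -5.37 and -6.27 in fld untreated arrays. For Ccne2, control cells gave -7.14, -6.18, -7.05 and -7.06 on LPS arrays against -6.41, -6.5, -6.29 and -6.1 on untreated arrays. Only 1 of the 16 arrays read the second cyclin E above background, so its values have no firm order. Ccnd3 ranged over 0.71 to 1.39 in fld LPS arrays against 0.84 to 1.34 in fld untreated arrays, and over 0.59 to 1.39 in control LPS arrays against 0.93 to 1.43 in control untreated arrays. Cdk2 ranged over -5.33 to -3.41 in fld LPS arrays against -4.18 to -3.49 in fld untreated arrays, and over -4.13 to -3.91 in control LPS arrays against -3.96 to -3.58 in control untreated arrays. Neither Ccnd3 nor Cdk2, the kinase of cyclins E and A, was called in these fits, and the lowest Cdk2 value was that of fld LPS replicate 4. Under the normexp correction with reset backgrounds, described with the mitotic genes, Cdk2 was called higher with LPS in fld cells, against a change of -0.71 without fld LPS replicate 3 in the processing used here (adjusted p = 0.0526).

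The kinase inhibitors moved in different directions. Cdkn1a measured 4.03, 4.16, 3.56 and 4.24 in fld LPS arrays against 4.39, 3.63, 3.77 and 3.46 in fld untreated arrays. For Cdkn1a, control cells gave 4.19, 4.04, 3.46 and 3.83 on LPS arrays against 3.06, 2.94, 2.6 and 3.08 on untreated arrays. Cdkn1a encodes p21, the inhibitor of cyclin-dependent kinases that p53 induces. It rose with LPS in control cells, by 0.96 ± 0.21 (adjusted p = 0.0033, limma), with no overlap between the groups. In fld cells the LPS and untreated arrays overlapped and the change was 0.19 ± 0.21 (adjusted p = 0.505), while fld untreated arrays were all above control untreated arrays, by 0.89 ± 0.21 (adjusted p = 0.0258). That call was lost without fld untreated replicate 1 or 3 and without control untreated replicate 2 or 3, at differences between 0.70 and 0.91 (adjusted p between 0.051 and 0.0918). The difference between genotypes in the LPS effect on Cdkn1a was -0.77 ± 0.30 (adjusted p = 0.43), which did not pass the test.

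Cdkn2c read -1.44, -1.66, -0.99 and -1.02 in fld LPS arrays against -1.16, -0.73, -1.25 and -1.14 in fld untreated arrays. For Cdkn2c, control cells gave -1.74, -2.04, -1.6 and -1.78 on LPS arrays against -1.11, -0.72, -0.13 and -0.95 on untreated arrays. Cdkn2c encodes p18, an inhibitor of Cdk4 and Cdk6, and it fell with LPS in control cells by 1.06 on the log2 scale (SE 0.21, adjusted p = 0.00125, limma), again with no overlap. Its change in fld cells was -0.21 ± 0.21 (adjusted p = 0.443) with overlapping arrays, and its second probe gave differences of -0.51 in fld cells and -1.19 in control cells. Cdkn1b lay at -0.31, 0.01, -0.24 and 0.42 in fld LPS arrays against -0.05, -0.27, 0.08 and -0.49 in fld untreated arrays. For Cdkn1b, control cells gave -0.45, -0.44, -0.64 and -0.4 on LPS arrays against -0.32, -0.35, -0.03 and -0.22 on untreated arrays. Cdkn1b encodes p27, an inhibitor that holds resting cells out of cycle, and it was not called with LPS in either genotype. Every fld LPS array exceeded every control LPS array for Cdkn1b, with a difference of 0.45 ± 0.16 (adjusted p = 0.0656) that passed the test without fld LPS replicate 1 or 3, at 0.54 (adjusted p = 0.0335) and 0.52 ± 0.17 (adjusted p = 0.045). Without fld LPS replicate 4 it was 0.30 ± 0.14 (adjusted p = 0.207).

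The members that encode transcription factors moved apart. Foxm1 stood at -2.17, -2.08, -1.43 and -1.88 in fld LPS arrays against -2.58, -2.49, -2.8 and -2.58 in fld untreated arrays. For Foxm1, control cells gave -2.52, -2.14, -2.29 and -2.25 on LPS arrays against -3.11, -2.73, -2.75 and -2.59 on untreated arrays. Foxm1, the forkhead factor of the G2 and mitosis genes, rose with LPS in both genotypes, by 0.72 ± 0.16 in fld cells (adjusted p = 0.0024, limma) and by 0.49 ± 0.16 in control cells (adjusted p = 0.0271). Neither genotype's LPS and untreated arrays overlapped. The control call was lost under 6 of 31 alternatives, among them leaving out control untreated replicate 1 (0.39, adjusted p = 0.087), control LPS replicate 2 (0.44, adjusted p = 0.0792) or control LPS replicate 4 (0.48, adjusted p = 0.0646). Between genotypes Foxm1 was not called in the fit to all arrays. With LPS it was called higher in fld cells with reset backgrounds, and without fld LPS replicate 1. E2f1 measured -2.72, -3.03, -1.76 and -3.37 in fld LPS arrays against -2.45, -2.05, -2.31 and -1.88 in fld untreated arrays. For E2f1, control cells gave -3.04, -3.12, -2.47 and -2.83 on LPS arrays against -2.57, -1.99, -1.35 and -1.87 on untreated arrays. E2f1, an activator of replication genes at the entry into S phase, fell in control cells by 0.92 on the log2 scale (SE 0.31, adjusted p = 0.0339), although the arrays overlapped. That call was lost under 9 of 31 alternatives and its sign turned under 1. Leaving out control untreated replicate 2, 3 or 4 or control LPS replicate 1, 2 or 4 gave changes between -0.93 and -0.72 (adjusted p between 0.0605 and 0.11). In fld cells its change was -0.54 ± 0.31 (adjusted p = 0.167), and without fld LPS replicate 3, the highest of the fld LPS arrays, it was -0.87 ± 0.25 (adjusted p = 0.0159). The second E2f1 probe gave smaller differences, of -0.02 in fld cells and -0.54 in control cells.

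**Figure D2:**
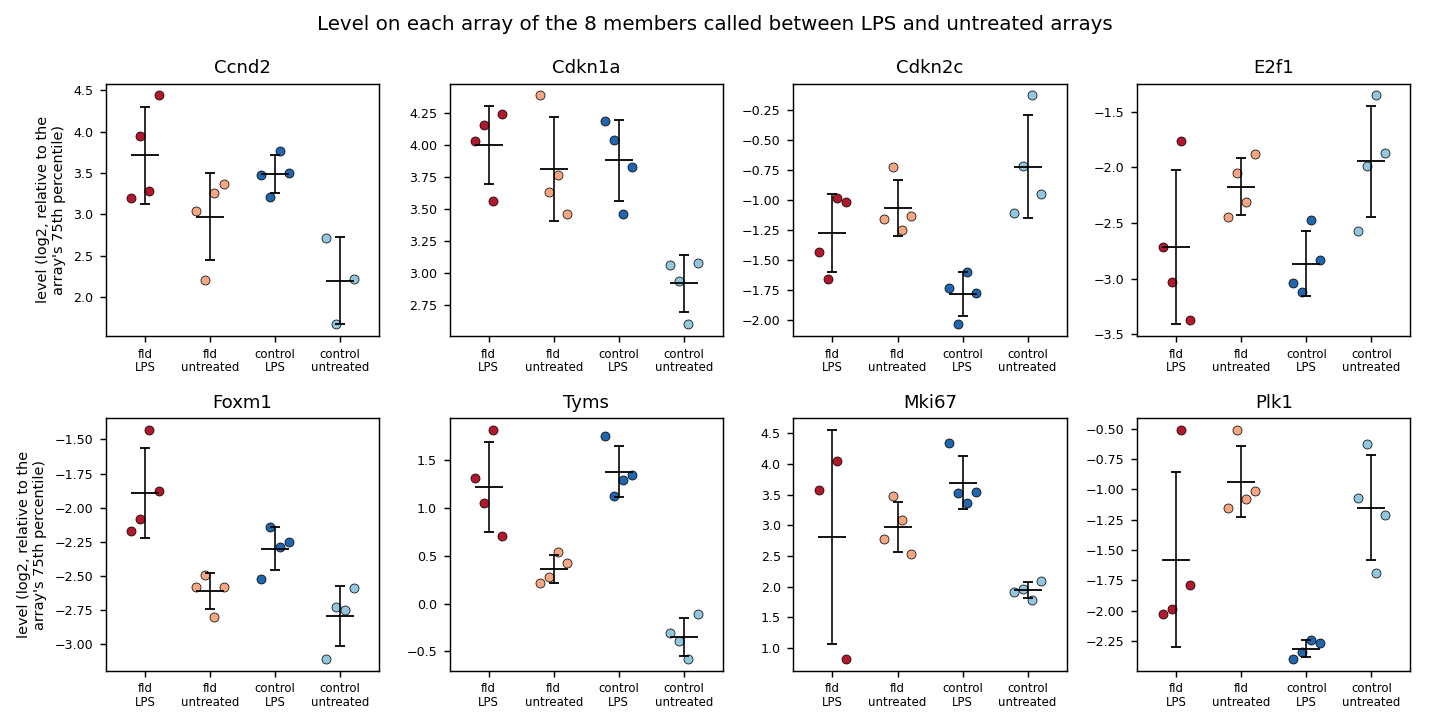
Each point is 1 array, placed by its log2 level relative to the array's 75th percentile, for the 8 members called between LPS and untreated arrays in either genotype; bars give the mean and SD of each group, and each panel has its own scale. Tyms and Foxm1 are higher with LPS in both genotypes without overlap, and fld LPS replicate 3 lies above the other fld LPS arrays for Plk1.

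Among the replication members thymidylate synthase stood alone. Tyms read 1.31, 1.05, 1.81 and 0.7 in fld LPS arrays against 0.21, 0.28, 0.54 and 0.42 in fld untreated arrays. For Tyms, control cells gave 1.75, 1.12, 1.29 and 1.34 on LPS arrays against -0.31, -0.39, -0.58 and -0.11 on untreated arrays. Tyms makes the thymidylate needed for DNA synthesis. It rose with LPS by 0.85 ± 0.20 in fld cells (adjusted p = 0.00401, limma) and by 1.72 ± 0.20 in control cells (adjusted p = 1.69e-05), and in both genotypes the lowest LPS array was above the highest untreated array. Untreated fld arrays were all above untreated control arrays, by 0.71 ± 0.20 (adjusted p = 0.0528), a difference that passed without fld LPS replicate 3 (adjusted p = 0.0216) and with an unchanged size. The difference between genotypes in the LPS effect was -0.87 ± 0.28 (adjusted p = 0.335). A second Tyms probe moved alike, by 0.93 in fld cells and 1.78 in control cells, while the remaining one, above background on 15 of 16 arrays, gave 1.37 in fld cells and 0.37 in control cells, so the probes disagree on which genotype had the larger change.

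The minichromosome maintenance genes Mcm2 to Mcm7 encode the subunits of the replicative helicase. Mcm2 read -0.4, 0.56, 1.09 and 0.52 in fld LPS arrays against 0.23, 0.24, 0.42 and 0.8 in fld untreated arrays, and -0.0, 0.11, 0.86 and 0.3 in control LPS arrays against 0.19, 0.0, 0.48 and 0.45 in control untreated arrays. Mcm3 lay at 2.29, 2.65, 3.54 and 2.64 in fld LPS arrays against 2.6, 2.61, 2.9 and 2.93 in fld untreated arrays, and 2.46, 2.5, 3.15 and 2.72 in control LPS arrays against 2.58, 2.43, 3.08 and 2.54 in control untreated arrays. Mcm5 stood at 0.98, 1.73, 2.42 and 1.58 in fld LPS arrays against 1.16, 0.97, 1.7 and 1.71 in fld untreated arrays, and 1.23, 1.34, 2.0 and 1.47 in control LPS arrays against 1.02, 0.78, 1.46 and 1.27 in control untreated arrays. These values overlapped between LPS and untreated arrays in both genotypes, and the highest array was fld LPS replicate 3 for each. Mcm6 measured 2.27, 2.95, 3.77 and 2.65 in fld LPS arrays against 2.88, 2.43, 2.89 and 3.02 in fld untreated arrays, and 2.08, 2.59, 3.23 and 2.52 in control LPS arrays against 2.47, 2.04, 2.81 and 2.41 in control untreated arrays. Mcm7 read 1.25, 1.93, 2.71 and 1.87 in fld LPS arrays against 1.9, 1.75, 1.96 and 1.94 in fld untreated arrays, and 1.46, 1.66, 2.06 and 1.69 in control LPS arrays against 1.64, 1.37, 2.16 and 1.62 in control untreated arrays. Mcm4 ranged over 2.17 to 3.33 in fld LPS arrays against 2.38 to 2.73 in fld untreated arrays, and over 2.28 to 3.03 in control LPS arrays against 2.18 to 2.86 in control untreated arrays. The log2 change of the 6 helicase genes with LPS lay between 0.02 and 0.29 in fld cells and between 0.02 and 0.38 in control cells, and none was called. Pcna lay at 4.81, 4.68, 5.13 and 4.79 in fld LPS arrays against 4.76, 4.61, 4.88 and 4.8 in fld untreated arrays. For Pcna, control cells gave 4.71, 4.74, 5.27 and 5.0 on LPS arrays against 4.82, 4.78, 4.72 and 4.51 on untreated arrays. Pcna, the sliding clamp of the DNA polymerases, was within 0.76 of itself over the whole series and was not called in the fit to all arrays. Under median centring it was called lower in fld LPS than in control LPS arrays, where the median of all features was -0.37.

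Rrm2 ranged over -5.13 to -0.73 in fld LPS arrays against -4.17 to -3.71 in fld untreated arrays, and over -4.87 to -4.46 in control LPS arrays against -4.53 to -3.92 in control untreated arrays. Rrm2, the small subunit of the reductase that makes deoxynucleotides, was the replication gene with the widest spread in fld LPS arrays, since replicate 3 stood at -0.73 and the next highest at -4.13. Its change with LPS was 0.43 in fld cells with all arrays and -0.51 without that replicate, neither of which passed the test. With reset backgrounds Rrm2 was called higher with LPS in fld cells, with or without replicate 3. With all arrays and reset backgrounds it was also called higher in fld LPS than in control LPS arrays. In control cells it was called lower with LPS with only the compared groups in the fit, and without fld LPS replicates 3 and 4. Over the 9 replication members the median change was 0.09 in fld cells and 0.10 in control cells, and Tyms was the one member called in the fit to all arrays.

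The 18 mitotic members tested mostly had lower values with LPS. In control cells 17 of 18 changes were negative, with a median of -0.51, and Plk1 was the one called lower and Mki67 the one called higher. In fld cells 16 of 18 were negative with a median of -0.38 and none was called, whereas without fld LPS replicate 3 all 18 were negative with a median of -0.92 and 11 were called lower, where 41.7% of features were called in either direction. Several of these genes are dim, and their direction depends on the background correction. With a plain normexp correction the median of the mitotic members was 0.29 in fld cells (4 of 18 negative) and 0.35 in control cells (6 of 18 negative), the opposite direction, with no mitotic member called. That correction also changed whole arrays: 2 of the 16 correlated at under 0.9 with the values used here. Local backgrounds above 5 times the array's median were found on 3 arrays. With a normexp correction in which 21 extreme local backgrounds were reset, an alternative chosen after seeing the data, the median of the mitotic members was 0.08 in fld cells and -0.08 in control cells, and -0.10 in fld cells without replicate 3, where Aurka, Birc5, Cenpe and Cdc20 were called lower, Bub1b was called higher, and Aurkb, Cdk1, Nusap1 and Tpx2 had the opposite sign without a call.

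Plk1 stood at -2.03, -1.99, -0.51 and -1.79 in fld LPS arrays against -1.15, -0.51, -1.08 and -1.01 in fld untreated arrays. For Plk1, control cells gave -2.4, -2.34, -2.24 and -2.27 on LPS arrays against -1.07, -0.63, -1.69 and -1.21 on untreated arrays. Plk1, the polo-like kinase that starts mitosis, fell with LPS in control cells by 1.16 on the log2 scale (SE 0.29, adjusted p = 0.0074, limma), and the 4 control LPS arrays lay within 0.16 of each other. In fld cells its change was -0.64 ± 0.29 (adjusted p = 0.0912) with all arrays and -1.0 ± 0.21 (adjusted p = 0.00201) without replicate 3. All fld LPS arrays were above all control LPS arrays, by 0.73 ± 0.29 (adjusted p = 0.111), or by 0.38 without fld LPS replicate 3 (adjusted p = 0.25).

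Mki67 measured 3.57, 4.05 and 0.82 (replicate 2 flagged) in fld LPS arrays against 2.77, 3.48, 3.08 and 2.54 in fld untreated arrays. For Mki67, control cells gave 4.34, 3.53, 3.37 and 3.55 on LPS arrays against 1.91, 1.97, 1.79 and 2.1 on untreated arrays. Mki67, the antigen by which dividing cells are stained, rose with LPS in control cells by 1.75 ± 0.51 (adjusted p = 0.0193, limma) with no overlap, against the direction of the other 17 mitotic members there. Without control LPS replicate 1 it was 1.54 ± 0.55 (adjusted p = 0.0581). In fld cells it gave no call, at -0.16 ± 0.56 (adjusted p = 0.843), and its fld LPS arrays spread between 0.82 in replicate 4 and 4.05 in replicate 3. Without fld LPS replicate 4 the fld change was 0.84 ± 0.28 (adjusted p = 0.0324), without both arrays labelled fld replicate 4 it was 0.70 ± 0.28 (adjusted p = 0.0737), and without fld LPS replicate 3 it was -0.77 ± 0.54 (adjusted p = 0.266). The second Mki67 probe followed the first, at -1.39 in fld LPS replicate 4 and 0.62 in fld LPS replicate 2, whose brightest spot was flagged, and with differences of -0.24 in fld cells and 1.64 in control cells.

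The kinases and cyclins of mitosis came next. Aurka read -0.66, -0.4, 0.45 and -0.59 in fld LPS arrays against -0.15, 0.08, 0.08 and -0.03 in fld untreated arrays. For Aurka, control cells gave -0.46, -0.28, 0.06 and -0.29 on LPS arrays against -0.05, -0.0, -0.34 and -0.18 on untreated arrays. Aurka, the centrosome kinase, was called lower in fld cells without replicate 3, at -0.54 ± 0.13 (adjusted p = 0.00572, limma). Ccnb2 lay at -1.76, -1.32, 0.23 and -1.04 in fld LPS arrays against -0.62, -0.22, -1.25 and -0.35 in fld untreated arrays. For Ccnb2, control cells gave -1.72, -1.63, -2.0 and -1.71 on LPS arrays against -0.92, -0.7, -1.86 and -1.31 on untreated arrays. Ccnb2, a cyclin of Cdk1, was likewise called lower there, at -0.76 ± 0.28 (adjusted p = 0.0427). Ccna2 stood at -3.77, -3.31, -0.55 and -3.75 in fld LPS arrays against -2.96, -1.84, -2.77 and -2.26 in fld untreated arrays. For Ccna2, control cells gave -3.48, -4.18, -3.51 and -3.79 on LPS arrays against -2.67, -2.32, -3.72 and -3.02 on untreated arrays. Ccna2, the cyclin of S phase and G2, fell to between -3.77 and -3.31 on the other 3 fld LPS arrays, against -2.96 to -1.84 in fld untreated arrays, a change of -1.15 ± 0.32 without replicate 3 (adjusted p = 0.0112).

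Cdk1 ranged over -6.37 to -2.14 in fld LPS arrays against -4.44 to -3.07 in fld untreated arrays, and over -4.89 to -4.17 in control LPS arrays against -4.18 to -3.18 in control untreated arrays. Cdk1 is the kinase that cyclins A and B switch on to enter mitosis, and it gave the largest of the 12 falls in fld cells without replicate 3, -1.95 ± 0.39 (adjusted p = 0.00154, limma), although 12 of its 16 values were above background and normexp turned its sign. Aurkb ranged over -5.63 to -2.14 in fld LPS arrays against -3.73 to -3.26 in fld untreated arrays, and over -5.14 to -4.61 in control LPS arrays against -3.75 to -3.08 in control untreated arrays. Aurkb, the kinase of the chromosomal passenger complex, changed by -1.48 ± 0.23 in fld cells without replicate 3 (adjusted p = 0.000265) and by -1.37 ± 0.50 in control cells (adjusted p = 0.0511). Ccnb1 ranged over -6.52 to -3.77 in fld LPS arrays against -4.88 to -3.96 in fld untreated arrays, and over -5.99 to -4.31 in control LPS arrays against -5.13 to -4.09 in control untreated arrays. Ccnb1, the main mitotic cyclin, was not called in any comparison.

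The other 12 mitotic members serve chromosome structure, the kinetochore, the spindle, its checkpoint and mitotic exit. Birc5 measured -1.65, -2.03, 1.33 and -1.56 in fld LPS arrays against -0.86, -0.03, -0.78 and -0.68 in fld untreated arrays. For Birc5, control cells gave -1.8, -2.1, -1.61 and -1.39 on LPS arrays against -0.63, -0.36, -1.55 and -1.14 on untreated arrays. Birc5 encodes survivin, a partner of Aurkb, and among its fld LPS arrays replicate 3 stood at 1.33 and the others between -2.03 and -1.56. Cenpe read -1.5, -1.46, 0.22 and -0.99 in fld LPS arrays against -0.09, -0.06, -0.63 and -0.16 in fld untreated arrays. For Cenpe, control cells gave -1.63, -1.24, -1.36 and -1.13 on LPS arrays against -0.51, -0.29, -0.99 and -0.97 on untreated arrays. Cenpe, a kinetochore motor, had lower values in all control LPS arrays than in any control untreated array, with a change of -0.65 ± 0.31 (adjusted p = 0.127, limma), and was called lower in fld cells without replicate 3, at -1.08 ± 0.20 (adjusted p = 0.00116). Cdc20 lay at -0.56, -0.14, 0.88 and 0.19 in fld LPS arrays against 0.2, 0.7, 0.13 and 0.65 in fld untreated arrays. For Cdc20, control cells gave -0.19, -0.08, 0.18 and 0.07 on LPS arrays against 0.18, 0.41, -0.04 and 0.09 on untreated arrays. Cdc20, the activator of the anaphase-promoting complex, changed by -0.59 ± 0.19 in fld cells without replicate 3 (adjusted p = 0.0247) and by -0.17 ± 0.24 in control cells (adjusted p = 0.648).

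Cenpa lay at -1.14, -0.45, 0.12 and -0.34 in fld LPS arrays against -0.52, -0.39, 0.15 and -0.11 in fld untreated arrays, and -0.86, -0.89, -0.17 and -0.77 in control LPS arrays against -0.48, -0.68, -0.24 and -0.7 in control untreated arrays. Kif20a stood at -1.31, -1.12, 0.04 and -1.15 in fld LPS arrays against -1.14, -0.76, -1.13 and -0.77 in fld untreated arrays, and -1.18, -1.5, -1.33 and -1.08 in control LPS arrays against -1.32, -0.97, -1.27 and -1.37 in control untreated arrays. Cenpa, the histone variant of centromeres, and Kif20a, a kinesin of cytokinesis, were not called in any comparison, and for Kif20a fld LPS replicate 3 stood apart from the other 3. Top2a stood at -3.87, -3.88, -1.7 and -3.19 in fld LPS arrays against -3.83, -3.1, -3.63 and -2.36 in fld untreated arrays. For Top2a, control cells gave -3.76, -4.4, -4.06 and -4.11 on LPS arrays against -4.0, -2.31, -3.97 and -4.21 on untreated arrays. Top2a, the topoisomerase that untangles chromosomes, had 1 high array in each of 3 groups, fld LPS replicate 3, fld untreated replicate 4 and control untreated replicate 2. Nusap1 measured -4.67, -4.35, -1.43 and -3.81 in fld LPS arrays against -3.43, -2.35, -3.34 and -3.01 in fld untreated arrays, and -4.41, -4.34, -5.26 and -4.42 in control LPS arrays against -3.51, -3.25, -4.64 and -4.33 in control untreated arrays. Tpx2 read -3.75, -3.68, -2.28 and -3.77 in fld LPS arrays against -2.84, -2.76, -3.05 and -2.71 in fld untreated arrays, and -3.46, -3.64, -3.62 and -3.59 in control LPS arrays against -2.83, -2.73, -3.43 and -3.63 in control untreated arrays. Nusap1 and Tpx2, which organise spindle microtubules, were called lower with LPS in fld cells without replicate 3, at -1.25 ± 0.36 (adjusted p = 0.0143, limma) and at -0.89 ± 0.18 (adjusted p = 0.00202).

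Bub1 measured -5.76, -6.15, -2.99 and -5.83 in fld LPS arrays against -5.44, -4.7, -5.43 and -4.71 in fld untreated arrays. For Bub1, control cells gave -7.01, -6.74, -7.14 and -7.03 on LPS arrays against -5.53, -4.8, -7.45 and -6.16 on untreated arrays. Bub1, a checkpoint kinase, was above background on 3 of 16 arrays and was not tested. Bub1b ranged over -5.87 to -2.41 in fld LPS arrays against -4.83 to -4.0 in fld untreated arrays, and over -6.93 to -5.12 in control LPS arrays against -5.26 to -4.33 in control untreated arrays. Ube2c ranged over -1.54 to -0.93 in fld LPS arrays against -1.33 to -0.85 in fld untreated arrays, and over -2.12 to -1.49 in control LPS arrays against -2.35 to -1.2 in control untreated arrays. Kif11 ranged over -7.28 to -4.24 in fld LPS arrays against -7.36 to -6.4 in fld untreated arrays, and over -7.19 to -4.6 in control LPS arrays against -7.28 to -6.55 in control untreated arrays. Bub1b, a second checkpoint protein, and Ube2c, the ubiquitin-conjugating partner of the anaphase-promoting complex, were not called in the fit to all arrays, and Kif11, a spindle motor, was above background on 2 arrays. With reset backgrounds Bub1b, above background on 8 of 16 arrays, was called higher in fld cells with LPS, both against fld untreated and against control LPS arrays, while its change with LPS in fld cells was -0.95 without fld LPS replicate 3 in the processing used here (adjusted p = 0.0604).

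The array of fld LPS replicate 3 was high in most of these genes. It was the highest of all 16 arrays for 25 of the 38 members tested, where it was the highest for 4.87% of all features, and the highest of its group for 33 of 38, including all 18 mitotic and all 9 replication members, where it was so for 24.2% of features. By Dixon's critical value for 4 samples it stood apart as high for Ccna2, Plk1, Birc5, Kif20a and Tpx2, and for Bub1 outside the fit, against 0.517% of features that could be tested. Its excess over the mean of the other 3 fld LPS arrays had a median of 1.57 over the mitotic members, 0.99 over the replication members, 0.21 over the G1 members, -0.28 over the inhibitors and -0.02 over all features. It exceeded 1 for 15 of 18 mitotic and 4 of 9 replication members, where 1.5% of features did so. Members far below it in excess were Ccnd1, Ccnd2 and Cdkn1a, at -0.72, -0.58 and -0.59.

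Among cell cycle genes that are not members, the excess of that array had a median of 1.15 over 31 other mitotic genes, 0.84 over 27 other replication genes, 0.21 over 32 other G1 genes and -0.10 over 18 genes of the p53 pathway. Its excess over the marker lists was 0.68 for macrophages, where replicate 4 was low, 0.07 for B cells, -0.63 for T cells, -1.10 for mast cells and -0.67 for mesothelial cells and fibroblasts. The part of any of these cell types in the excess was not tested.

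**Figure D3:**
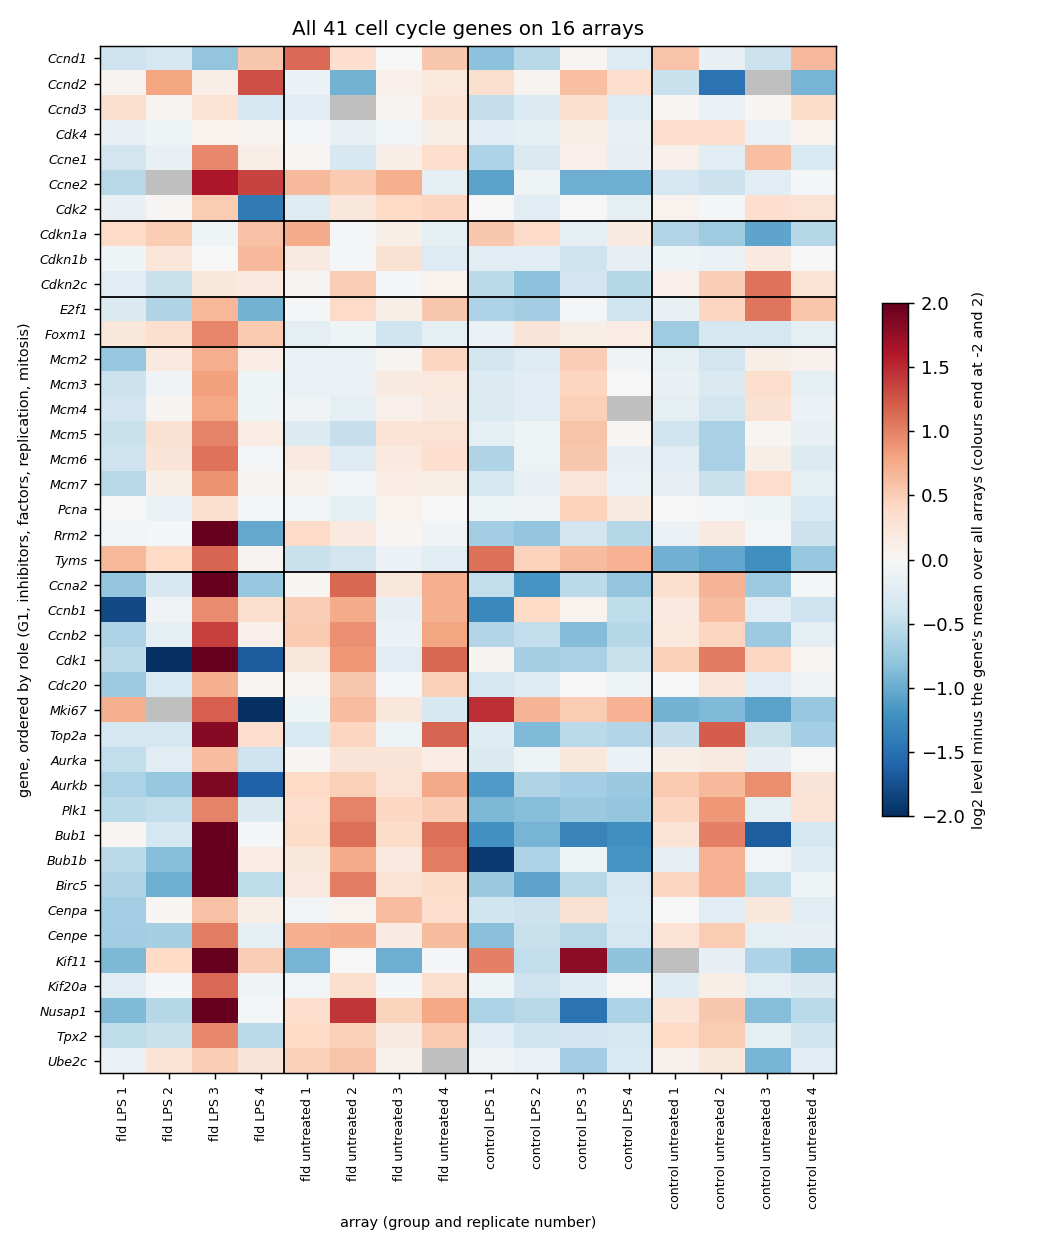
Each cell is the log2 level of a gene (rows, grouped by role) on an array (columns, grouped by genotype and treatment) minus the mean of that gene over the 16 arrays, red for higher and blue for lower, with colours ending at -2 and 2 and grey for flagged spots. The column of fld LPS replicate 3 is red through the replication and mitotic blocks, and the control LPS columns are blue in most mitotic rows except Mki67.

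The mean over the 20 mitotic members, with flagged spots kept, summed this up on each array. It was -2.96, -2.82, -0.89 and -2.73 in fld LPS arrays against -2.25, -1.74, -2.31 and -1.84 in fld untreated arrays, and -2.86, -2.89, -2.74 and -2.88 in control LPS arrays against -2.31, -1.97, -2.78 and -2.67 in control untreated arrays. In fld cells 3 of the 4 LPS arrays lay below every untreated array and the fourth above every one. In control cells the groups overlapped by 1 array, control untreated replicate 3. That array had the lowest summed mast cell level of the series, 3.94 against 6.25 to 6.36 in the other control untreated arrays, and the part of this in the result was not tested. Over all 41 members the mean level was -0.94 ± 0.66 in fld LPS arrays, -0.85 ± 0.12 in fld untreated arrays, -1.33 ± 0.12 in control LPS arrays and -1.14 ± 0.12 in control untreated arrays (SD, n = 4 each). Its difference with LPS was -0.10 in fld cells and -0.42 without fld LPS replicate 3, and -0.19 in control cells.

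**Figure D4:**
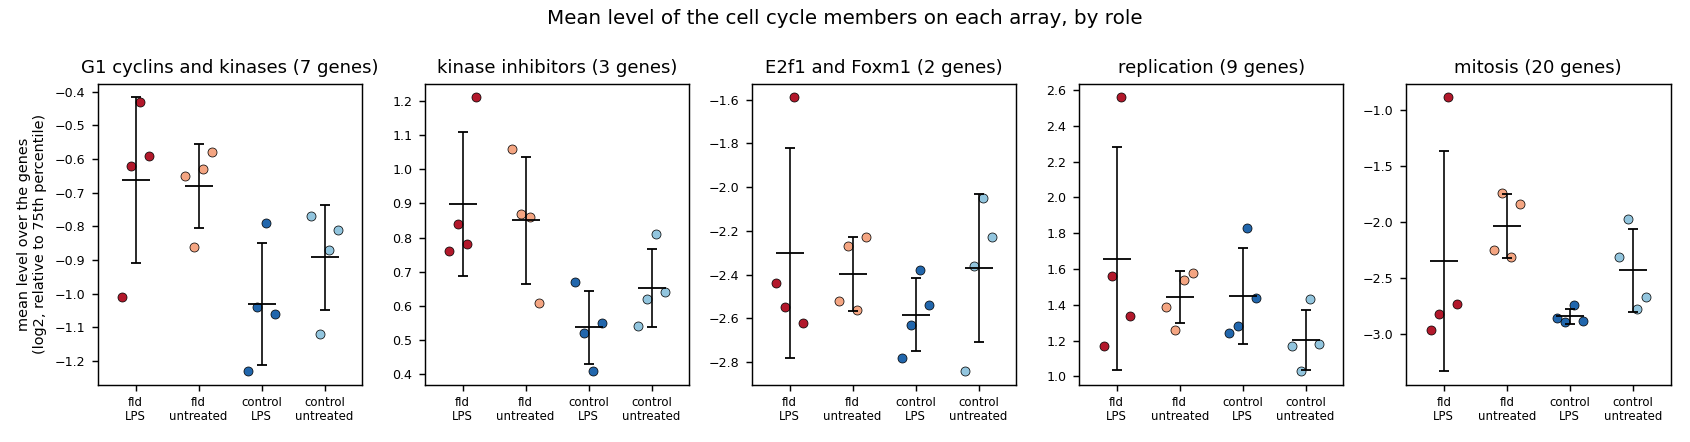
Each point is the mean log2 level of the genes of a role on 1 array, relative to the array's 75th percentile, with bars for the mean and SD of each group and a separate scale per panel. Flagged spots were kept in these means. In the mitosis panel fld LPS replicate 3 lies at -0.89 and the other 3 fld LPS arrays between -2.96 and -2.73.

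Between genotypes few members differed. Without LPS, 1 of 38 was called, Cdkn1a, higher in fld cells, where 5.07% of features were called. The members called without fld LPS replicate 3 were Cdkn1a and Tyms, where 4.92% of features were called, and without both arrays labelled fld replicate 4 they were Cdkn1a, Tyms and Mki67, where 6.35% were called. Of the 38 differences 33 were positive, with a median of 0.26 against 0.06 over all features. Centring arrays on the median in place of the 75th percentile moved the median of all features by more than 0.1, to -0.12 without LPS and -0.37 with LPS. The median of the members moved to 0.08 and -0.17, so it stayed positive without LPS and turned negative with LPS. The sizes of these differences follow the scaling, and with all arrays the members' median lay above that of all features under both. With LPS this was not so without fld LPS replicate 3, where both medians were 0.02. With LPS and no filter on dim probes the members' median was 0.23, against 0.28 over all features.

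With LPS, 0 of 38 members were called between genotypes by limma, where 17.0% of features were called, and 7 had an unadjusted p under 0.05, as had 26.6% of features. Without fld LPS replicate 3 the count was 1, Cdkn1b, where 18.6% of features were called, and it was 0 without both arrays labelled fld replicate 4, where 13.2% were called. The median difference of the mitotic members was 0.45 with all arrays and 0.02 without fld LPS replicate 3.

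The genotype difference in the LPS effect was tested as a contrast of its own and was called for 0 of 38 members and 0.0% of 17446 features by limma. An unadjusted p under 0.05 was reached by 4 members, Cdkn1a, Cdkn2c, Tyms and Mki67, and by 9.34% of features. The LPS effects of the genotypes share no arrays, but the contrasts between genotypes reuse the same arrays, so their values are given side by side and not as separate evidence.

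Counted as groups that do not overlap, 5 members were higher with LPS in control cells where 16.5% of features were, and 5 were lower where 16.6% were. In fld cells 2 were higher, where 20.9% of features were, and 0 lower, where 16.7% were. Without fld LPS replicate 3, 2 were higher (24.7% of features) and 11 lower (20.0% of features). Without LPS 3 members were higher in all fld arrays than in any control array, Cdkn1a, Tyms and Mki67 (13.3% of features), and with LPS 2 were, Cdkn1b and Plk1 (17.7% of features).

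A further 123 cell cycle genes that are not members were listed beside them, of which 108 were tested. LPS raised 16 and lowered 18 of them in fld cells and raised 12 and lowered 14 in control cells, where 39.6% and 29.5% of all features were called. Without fld LPS replicate 3 it raised 15 and lowered 37 in fld cells, where 41.7% of features were called, and raised 13 and lowered 20 in control cells, where 29.7% were. The genotype difference in the LPS effect was called for 0 of the 108. A change given below for a single genotype is therefore not a difference shown between genotypes.

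Retinoblastoma family genes were among those lowered. Rb1 fell by 0.73 on the log2 scale in fld cells (SE 0.11, adjusted p = 0.000129, limma) and by 0.62 in control cells (SE 0.11, adjusted p = 0.000574), and its relative Rbl1 fell by 1.24 in fld cells (SE 0.18, adjusted p = 0.00012). Rbl2 was not called, at -0.48 ± 0.21 in fld cells and -0.20 ± 0.22 in control cells. Tfdp2, a dimer partner of E2F factors, fell by 1.08 in fld cells and by 1.33 in control cells, and Cdc25b, the phosphatase that activates Cdk1, fell by 1.20 in control cells. E2f5, an E2F family member that represses, rose by 0.94 ± 0.12 in fld cells (adjusted p = 2.79e-05), and E2f4 rose by 0.40 ± 0.12 there (adjusted p = 0.0165).

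Genes known as targets of p53 moved in both directions. Gadd45a rose by 1.71 ± 0.23 in control cells (adjusted p = 6.7e-05), Plk3 by 0.99 ± 0.11 there (adjusted p = 1.24e-05), and Sesn2 by 1.13 ± 0.18 in fld cells (adjusted p = 0.000227) and by 1.33 ± 0.18 in control cells (adjusted p = 5.76e-05). Plk2 rose by 0.96 ± 0.31 in fld cells (adjusted p = 0.0259). Pmaip1, which encodes the death factor Noxa, fell by 1.31 in fld cells and by 1.02 in control cells. Trp53 itself, Mdm2 and Myc were not called with LPS, at 0.36, 0.35 and 0.18 in fld cells and at 0.09, 0.39 and 0.31 in control cells. Cks2, a small subunit of cyclin-dependent kinases, rose by 1.06 ± 0.16 in control cells (adjusted p = 0.000173).

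Between genotypes, where 5.07% of features were called, 2 of these 108 genes were higher in fld cells without LPS, Fas at 0.61 ± 0.15 and Cdkn2d at 0.38 ± 0.09, and 1 was lower, Cdkn2a at -1.39 ± 0.27 (adjusted p = 0.0093, limma), an inhibitor locus that encodes p16 and p19Arf. Cdkn2a stood at -5.70, -5.34, -5.71 and -4.37 in fld untreated arrays against -3.93, -3.95, -3.63 and -4.03 in control untreated arrays, with the highest fld value on the array labelled replicate 4, and was above background on 3 of the 4 fld untreated arrays. It rose with LPS in fld cells, by 1.31 ± 0.27 (adjusted p = 0.00159). With LPS 9 of the 108 were higher in fld cells and 0 lower, where 17.0% of features were called, and without fld LPS replicate 3 the counts were 7 and 2. Among the 9 were Nuf2 at 1.48 ± 0.33 (adjusted p = 0.0055), Mybl2 at 0.82 ± 0.21, Cenpn at 0.81 ± 0.21 and Mycn at 0.72 ± 0.22. Nuf2, a kinetochore gene, stood at -3.33, -2.88, -1.54 and -2.08 in fld LPS arrays against -3.57, -4.19, -4.05 and -3.93 in control LPS arrays, with its highest value on replicate 3.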

How the data were processed

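RNA of 16 cell samples was hybridised to single-colour Agilent arrays, 4 per group. The intensity values are processed signals of Agilent Feature Extraction, background-subtracted as deposited by the authors, per the file headers, and the scan software is named in the submitters' processing notes. The deposited series table holds a ratio per spot, which equals the processed intensity over the array's median within 0.001%. It was checked and not used further.

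Levels were log2 of the intensity minus the array's 75th percentile over 43379 non-control spots. Spots flagged as outliers, 1.34% of values, were left out, and spots of a probe were averaged. The mean levels over several members kept flagged spots and so covered the same genes on every array. Probes had to exceed background clearly throughout 1 or more groups (25490 of 41174), and the brightest kept probe stood for its gene (17446 features). Names were updated through RefSeq's GRCm38.p6 table, by accession for 22951 probes, symbol for 6659 and synonym for 3109, with the file's name kept for 8455. No probe coordinates are printed.

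One limma 3.58.1 model (R 4.3.3) over 16 arrays gave 5 contrasts, with Benjamini-Hochberg adjustment over all features and a threshold of 0.05. The number of arrays limits the precision. In data simulated for the LPS effect in control arrays over 17446 features, 79% of changes of 1 and 99% of changes of 2 on the log2 scale were recovered. The simulated noise was independent between features, and few features were changed, whereas 29.5% of features were called in these data. These shares are therefore not the power of the tests above. Per-array values are given for members above background on all arrays, called, or with an array standing apart, and ranges for the rest. The members and lists were chosen with earlier results of these data known. Same-numbered arrays were not treated as pairs in this model. Their deviations from the group mean correlated between 0.09 and 0.26 in control and between -0.10 and 0.21 in fld. Arrays of unlike number correlated between -0.26 and 0.21 in control and between -0.41 and 0.37 in fld. Whether same-numbered arrays shared a mouse is not settled by these values. One result on a gene that is not a member is not reported here.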

Additional observations from a re-analysis of the deposited data

Results flagged for a closer look

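In groups of 4 arrays, 1 array was set apart where its gap to the nearest other, over the group's range, exceeded Dixon's critical value, which chance gives in about 1 in 20 groups. Fld LPS replicate 3 stood apart as high for Ccna2 at -0.55, Plk1 at -0.51, Bub1 at -2.99, Birc5 at 1.33, Kif20a at 0.04 and Tpx2 at -2.28. Its mean level stood apart too, at 0.03 over all 41 members and at -0.89 over the mitotic members.

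Among control arrays, LPS replicate 3 was high for Cdk4 at 1.56 and low for Nusap1 at -5.26, LPS replicate 2 was apart for Ccne2 at -6.18, and untreated replicate 2 was high for Top2a at -2.31. Of the cell cycle genes that are not members, Cks2 stood apart in fld untreated replicate 3 at 1.63, and Sesn2 in fld untreated replicate 4 at 4.23 and in control LPS replicate 3 at 4.89. Rbl1 stood apart in control untreated replicate 1 at 0.89 and Mycn in control untreated replicate 3 at -4.95.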

How the results depend on the processing

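The counts of members called with LPS in fld cells depended most on the settings. They were 2 with all arrays, 0 with normexp, 5 with normexp and reset backgrounds (9 with fld LPS replicate 3 also left out), 4 with median centring, 14 without fld LPS replicates 3 and 4, and 11 without replicate 3 and both arrays labelled replicate 4. In control cells the count of 8 became 1 with normexp and 13 with only the compared groups in the fit, without fld LPS replicates 3 and 4, or also without fld untreated replicate 4. Between genotypes without LPS the count of 1 became 0 with normexp, with reset backgrounds (with or without fld LPS replicate 3) and with quantile normalization, 2 with array weights, and 3 with only the compared groups or without fld LPS replicates 3 and 4, with or without fld untreated replicate 4. With LPS the count of 0 became 3 with reset backgrounds, and 1 with median centring, with no filter on dim probes and with reset backgrounds without fld LPS replicate 3.

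Leaving out 1 array at a time gave 6 to 12 members with LPS in control cells, 2 to 15 in fld cells, 0 to 3 and 0 to 2 between genotypes without and with LPS, and 0 for the genotype difference in the LPS effect. For all features it gave 4157 to 5879, 5321 to 7268, 353 to 1610, 2126 to 3252 and 0 to 1. The mean level of the members differed by -0.25 to -0.14, -0.42 to 0.06, 0.25 to 0.34 and 0.06 to 0.55.

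Features called were 1192 with LPS in control cells and 1476 in fld cells with normexp, and 4589 in fld cells without fld LPS replicate 3 and both arrays labelled replicate 4. Between genotypes without LPS they were 0 with normexp, 38 with reset backgrounds and 32 also without fld LPS replicate 3, 552 with quantile normalization, 414 with probes above background on all arrays, 1683 with only the compared groups, 2241 with array weights and 1448 without fld LPS replicates 3 and 4. With LPS they were 0 with normexp, 8448 with median centring, 1825 with probes above background on all arrays, 1923 without fld LPS replicates 3 and 4, and 1846 also without fld untreated replicate 4. For the genotype difference in the LPS effect they were 14 with quantile normalization, 7 with median centring, 11 with array weights and 1 without fld LPS replicates 3 and 4, with or without fld untreated replicate 4. The mean level of the members with LPS in control cells was -0.32 over members without a flagged spot, 0.27 with normexp and 0.06 with reset backgrounds, and without LPS the genotype difference was 0.12 with median centring.

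Signs turned under background correction. With normexp, control cells gave 0.55 for Aurkb, 0.73 for Bub1b and 0.01 for E2f1, and fld cells 0.96 for Aurkb, 0.13 for Birc5, 0.73 for Ccna2, 0.04 for Ccnb2, 0.83 for Cdk1, 0.35 for E2f1, 0.80 for Nusap1, 0.11 for Plk1 and 0.62 for Tpx2. With reset backgrounds Bub1b was 0.01 in control cells, and fld cells gave 0.40 for Aurkb, 0.23 for Ccna2, 0.29 for Cdk1, 0.27 for Nusap1 and 0.16 for Tpx2. With fld LPS replicate 3 also left out, Bub1b was 0.01 in control cells and fld cells gave 0.27 for Aurkb, 0.11 for Cdk1, 0.03 for Nusap1 and 0.07 for Tpx2. The cause was not tested.

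With the replicate number as a block, 8, 2 and 0 members were called for LPS in control cells, LPS in fld cells and the genotype difference in the LPS effect, as without it, and the genotype effects could not be fitted. Settings that leave out fld LPS replicate 3 together with others, and the reset backgrounds, were chosen after seeing the data. Leaving out each array in turn was planned, but fld LPS replicate 3 was singled out among these by its values in the members. Signal over background limits Ccne2, Bub1 and Kif11, which were above background on 1, 3 and 2 arrays.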

Other observations

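The summed level of granulocyte markers was higher with LPS, at 4.26 to 4.75 in fld LPS arrays against 0.37 to 0.73 in fld untreated arrays. Control LPS arrays gave 3.19 to 3.99 against 0.33 to 1.21 in control untreated arrays. That sum was carried mostly by S100a8, at 3.09 to 3.91 in control LPS arrays against -0.16 to 0.93 in control untreated arrays. Camp also rose in both genotypes. S100a9 went the other way in control cells, at -5.07 to -3.06 with LPS against -3.31 to -1.1 untreated, and Mpo overlapped in both genotypes. At most 5 of the 6 markers on the array were above background on any array, and their part in the changes of the cell cycle genes was not tested.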
